A study of Mus musculus with 6 samples.

Results

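The transcription factors that drive epithelial-mesenchymal transition (EMT) were examined in breast cancer cells that had survived chemotherapy. The group was fixed by name and holds 10 genes, Zeb1, Zeb2, Snai1, Snai2, Snai3, Twist1, Twist2, Prrx1, Foxc2 and Tcf4. Each was represented by 1 probe set, so that 10 of the 19933 genes measured on the arrays are described, and all 10 were tested. In EMT, epithelial cells lose their junctions and polarity and take on features of migratory mesenchymal cells. ZEB and SNAI proteins are zinc-finger repressors that bind E-box elements in the promoters of epithelial genes such as Cdh1 (E-cadherin) and silence them through recruited corepressor complexes. TWIST proteins are basic helix-loop-helix factors that pair with E proteins, PRRX1 is a homeodomain factor, and FOXC2 is a forkhead factor. ZEB1 and ZEB2 and the miR-200 microRNAs, which bind the transcripts of Zeb1 and Zeb2, repress one another. In carcinoma such circuits are studied as a source of plasticity, invasion and drug tolerance.

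The untreated group, WTR-, was the parental 4T1 line, a mammary carcinoma line of BALB/c mice, on 3 arrays. The other group, MR13, was 1 line derived from 4T1 cells that outlived methotrexate (MTX, an antifolate), also on 3 arrays. The labels give 13 µg/ml MTX for up to 2 weeks, while the study's text gives a different concentration and a longer exposure followed by drug-free medium. Whether drug was still in the wells at RNA extraction is not given in the labels. The labels describe wells grown in triplicate, so the p-values measure the spread between wells of the lines and not between separate selections. All values are log2 signals as deposited, a difference is MR13 minus WTR-, and calls rest on a Benjamini-Hochberg adjusted p under 0.05 from limma over all 19933 genes. By that rule 37.6% of all genes were called, 17.0% higher and 20.6% lower in MR13, and 4.06% were called with at least a 2-fold difference. The groups did not overlap for 47.4% of genes. Values of different probe sets are not compared as levels.

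The cell type named in the labels was checked with 8 epithelial markers. The keratins Krt8 (13.34 to 13.46 in WTR-, 13.49 to 13.61 in MR13) and Krt18 (12.97 to 13.00 and 12.74 to 12.85) stayed bright in both lines. In all, 7 of the 8 markers were called lower in MR13, and Krt8 was not called. Krt18 was lower by a small difference (-0.19), and the other 6 markers fell at least 2-fold. They were the adhesion genes Cdh1 and Epcam, the claudin gene Cldn4 and the keratins Krt7, Krt19 and Krt14. Most markers of the labelled cell type, keratins among them, were thus lower there, while Krt8 and Krt18 stayed bright. The summed log2 level of the 8 markers was 92.9 to 93.4 on the WTR- arrays and 70.6 to 71.9 on the MR13 arrays. Of 10 fibroblast markers, 2 were higher, 1 was lower and 7 were not called, with sums of 58.6 to 59.6 in WTR- and 61.7 to 62.7 in MR13. Of 9 leukocyte markers 1 was called, the lysosomal gene Cd68, with sums of 50.4 to 50.6 and 50.4 to 51.0, and the pan-leukocyte gene Ptprc differed by 0.05 (adjusted p = 0.522). The 6 endothelial markers gave sums of 30.1 to 30.7 and 30.5 to 31.0. The part of other cells in the results on EMT factors was not tested, and in RNA from whole cultures fewer cells of a type and less RNA per cell cannot be told apart.

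MR13 cells did not raise the EMT factors as a block. Of the 10 members, 3 rose (Zeb2, Snai1 and Twist1), 4 fell (Zeb1, Snai2, Snai3 and Foxc2) and 3 were not called (Twist2, Prrx1 and Tcf4). Within families, too, a ZEB and a SNAI gene rose while their relatives fell. The 7 of 10 called members (70.0%) stand beside 37.6% of all genes. The 3 that rose and the 4 that fell (30% and 40%) stand beside 17.0% and 20.6%. Only Zeb2 and Snai1 changed at least 2-fold (2 of 10, beside 4.06% of all genes), and the groups did not overlap for 8 of the 10 (beside 47.4%). The median difference of the members was 0.09, against 0.01 over all genes, and the median size of the difference without its sign was 0.25, against 0.13.

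**Figure D1:**
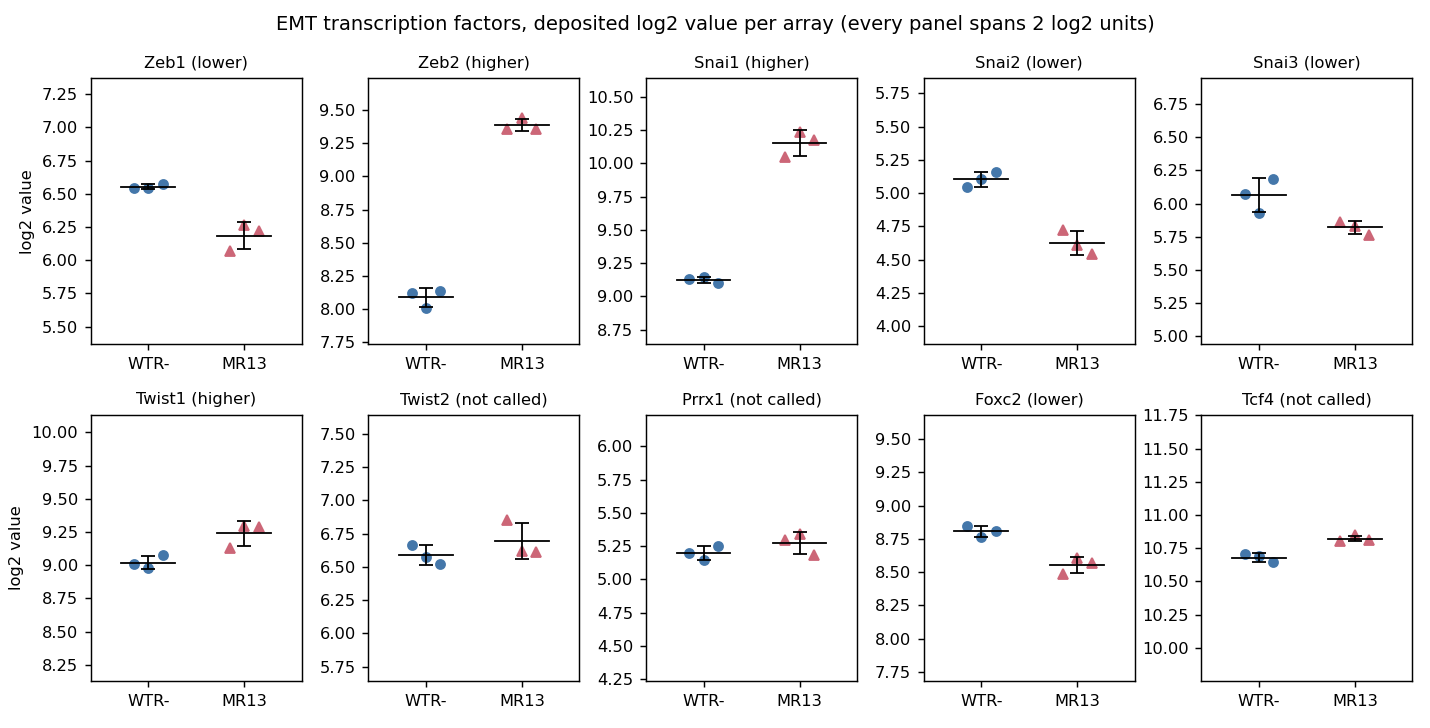
Deposited log2 value (y axis) of each EMT transcription factor on the 3 WTR- arrays (circles) and the 3 MR13 arrays (triangles), with the mean (line) and SD (bar), and the limma call above each panel. Every panel spans the same number of log2 units. Zeb2 and Snai1 are well apart, at means of 8.09 and 9.38 and of 9.12 and 10.16, whereas the groups overlap for Twist2 and Prrx1.

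The ZEB family moved in opposite directions. Zeb2 (probe set 10482448) lay at 8.12, 8.01 and 8.13 on the WTR- arrays and at 9.36, 9.44 and 9.36 on the MR13 arrays. All 3 MR13 values were above all 3 WTR- values, by far more than the spread within either line. This was the largest difference among the members, 1.30 on the log2 scale (SE 0.06, 95% interval 1.16 to 1.43), or 2.46-fold (adjusted p = 3.96e-07). Zeb1 (probe set 10453678) read 6.54, 6.54 and 6.57 in WTR- and 6.07, 6.26 and 6.22 in MR13. The MR13 values were again all on one side of the parental ones, but below them. Zeb1 fell by 0.37 (SE 0.06, 1.29-fold lower, adjusted p = 0.00137). ZEB1 and ZEB2 share their zinc-finger architecture and bind the same E-box core. Within each array, the log2 ratio of Zeb2 to Zeb1 was larger in MR13 by 1.66. An exact two-sided permutation test of that ratio gave p = 0.10, the smallest p that 3 arrays against 3 allow (adjusted p = 0.125 over the 5 paralog pairs compared).

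In the RefSeq gene table an antisense long non-coding RNA gene, Zeb2os, overlaps Zeb2 and had a probe set of its own. It read 5.61, 5.97 and 6.37 in WTR- and 6.55, 6.62 and 6.72 in MR13. The parental values were widely spread, and the MR13 values all lay above them. The difference was 0.65 (adjusted p = 0.0109). Zeb2os was looked at after the values of Zeb2 were known. Gm10125, a long non-coding RNA gene that overlaps Zeb1 and was also measured, was not called (-0.01, adjusted p = 0.913).

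The SNAI family also divided. Snai1 (probe set 10478884), which encodes SNAIL, the factor best known for repressing E-cadherin, lay at 9.13, 9.15 and 9.10 in WTR- and at 10.05, 10.24 and 10.18 in MR13. The lines were separated by a gap several times the spread within either one. The difference was 1.03 (SE 0.06, 95% interval 0.89 to 1.17), or 2.04-fold (adjusted p = 2.36e-06), so the interval reaches below the 2-fold mark. Snai2 (probe set 10433776), encoding SLUG, read 5.05, 5.11 and 5.16 in WTR- and 4.72, 4.61 and 4.54 in MR13. Every MR13 value was below every parental one. Snai2 fell by 0.48 (SE 0.06, 1.39-fold lower, adjusted p = 0.000306), the largest fall among the members. It belonged to the 30% of genes with the lowest mean signal, where background is a large part of the value and a difference can be understated. Snai3 (probe set 10582322), the least studied of the family, read 6.07, 5.93 and 6.19 in WTR- and 5.86, 5.83 and 5.77 in MR13. The lowest parental value, 5.93, was just above the highest MR13 value, 5.86, and the parental arrays were the more variable. Snai3 fell by 0.24 (SE 0.07, adjusted p = 0.0268), a call that was lost when any array other than WTR- replicate 2 was left out (adjusted p = 0.0501 to 0.0922).

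Relative to Snai1 on the same array, Snai2 differed between the lines by -1.51 and Snai3 by -1.27 on the log2 scale. The exact permutation p was 0.10 for each (adjusted p = 0.125), which is again the smallest possible. The ratio of Snai3 to Snai2 differed by 0.24 between the lines (exact permutation p = 0.10, adjusted p = 0.125). SNAI1 itself is among the genes that carry an E-box before their start. The 250 bases before the annotated start of mouse Snai1 are shown because it is the member whose window in the RefSeq promoter table held a match to the E-box CAGGTG or its reverse complement CACCTG (chr2:167537945-167538194, plus strand, GRCm38.p6, match in capitals).
Snai1: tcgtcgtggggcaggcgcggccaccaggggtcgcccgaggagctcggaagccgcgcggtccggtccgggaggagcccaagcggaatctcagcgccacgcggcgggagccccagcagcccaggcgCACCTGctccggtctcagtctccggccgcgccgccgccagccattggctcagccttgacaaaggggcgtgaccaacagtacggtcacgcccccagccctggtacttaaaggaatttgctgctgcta
The match begins 126 bases before the start. Windows were matched for 5 of the 10 members, and none of those of Zeb2, Twist1, Twist2 and Prrx1 held the motif on either strand. Over all genes with a window, 19.4% held it. A match is a string of letters and does not show that a factor bound there.

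Among the helix-loop-helix members the differences were small. Twist1 (probe set 10395320), a mesodermal regulator linked to metastasis, read 9.01, 8.98 and 9.07 in WTR- and 9.13, 9.29 and 9.29 in MR13. The lowest MR13 value was just above the highest parental one. Twist1 rose by 0.22 (SE 0.06, 1.16-fold, adjusted p = 0.0219), a call that did not hold when WTR- replicate 1 or 2, or MR13 replicate 2 or 3, was left out (adjusted p = 0.0613 to 0.0815). Its relative Twist2 (probe set 10348632) read 6.67, 6.57 and 6.53 in WTR- and 6.85, 6.62 and 6.61 in MR13. These groups overlapped, and MR13 replicate 1 stood above the other arrays. The difference of Twist2 was 0.11 (95% interval -0.07 to 0.28, adjusted p = 0.337), and 0.028 without that array. Relative to Twist1, Twist2 differed by -0.11 between the lines (exact permutation p = 0.50, adjusted p = 0.50).

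Tcf4 (probe set 10456522) encodes the E protein also called E2-2, a dimer partner of TWIST factors, and is not the WNT effector Tcf7l2 that is sometimes given the same name. Its values were 10.71, 10.69 and 10.65 in WTR- and 10.81, 10.85 and 10.81 in MR13. The groups did not overlap and both were tight. The difference of 0.14 (SE 0.05, 95% interval 0.03 to 0.26) fell just outside the threshold (adjusted p = 0.0501), and it passed after quantile normalization was applied again (adjusted p = 0.0280). It did not pass in the limma fit when any 1 array was left out (adjusted p = 0.0674 to 0.129).

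The remaining members belong to other factor classes. Foxc2 (probe set 10576051), a forkhead factor of mesenchymal and vascular tissue, read 8.85, 8.76 and 8.81 in WTR- and 8.49, 8.61 and 8.57 in MR13. All MR13 values were below the parental ones. Foxc2 fell by 0.25 (SE 0.06, 1.19-fold lower, adjusted p = 0.00590). Prrx1 (probe set 10359624), a homeobox gene of limb and connective tissue, read 5.20, 5.15 and 5.25 in WTR- and 5.29, 5.34 and 5.18 in MR13. The groups overlapped, and the gene was among the dimmest 30%. Its difference was 0.08 (95% interval -0.06 to 0.21, adjusted p = 0.386), so that a 2-fold difference in signal lay outside the interval, while a difference in transcript can be hidden at this level.

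**Figure D2:**
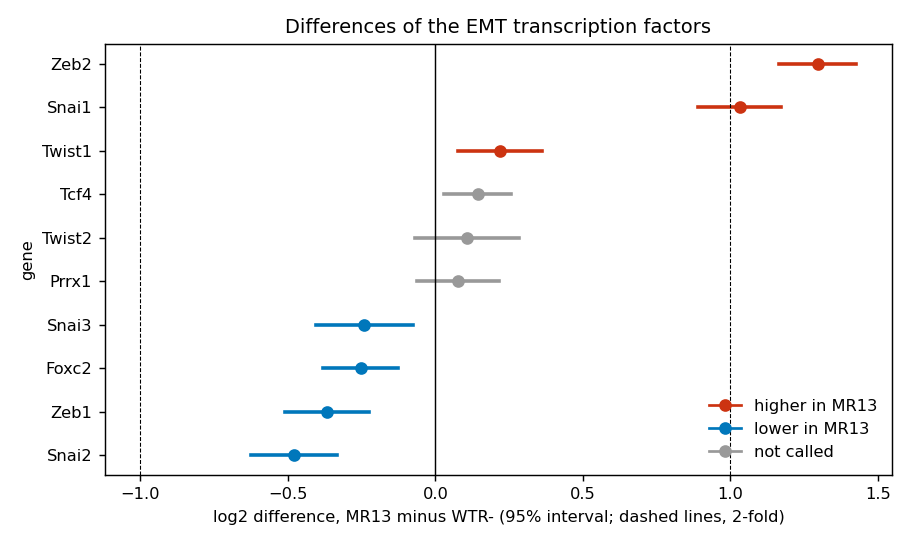
Log2 difference of each EMT transcription factor, MR13 minus WTR- (x axis), with its 95% interval from limma, ordered by size (y axis) and coloured by call. Zeb2 (1.30) and Snai1 (1.03) lie near or beyond the dashed 2-fold line, and the other 8 lie between -0.48 and 0.22.

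The genes around these factors were described from lists fixed by name, which were chosen with earlier results of these data known. Of 14 other transcription factors linked to EMT, 6 rose, 1 fell and 7 were not called (median 0.19). The shares that rose and fell were 42.9% and 7.1%, beside 17.0% and 20.6% of all genes. Foxq1, a forkhead factor, rose from 6.92, 7.11 and 7.01 in WTR- to 9.04, 9.16 and 9.24 in MR13, a difference of 2.13 (SE 0.07, 4.38-fold, adjusted p = 8.00e-08) that exceeded that of every member. The AP-1 subunit Fosl1 rose by 0.49, and the chromatin protein Hmga2 fell by 0.31.

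TWIST and TCF4 proteins act as dimers with other E proteins, and ID proteins, which lack a DNA-binding region, sequester E proteins. Of these 6 genes besides Tcf4, 4 rose (66.7%, beside 17.0% of all genes) and 2 were not called. Id1 went from 9.07, 9.03 and 9.14 in WTR- to 10.11, 10.23 and 10.20 in MR13. Its groups were far apart, with a difference of 1.10 (SE 0.06, adjusted p = 9.42e-07). Id2 rose by 0.55 (adjusted p = 0.000240) and Id3 by 0.22 (adjusted p = 0.0380), the latter losing its call in 6 of 14 alternatives. The E protein gene Tcf12 rose by 0.32 (adjusted p = 0.000649). Tcf3 (-0.10, adjusted p = 0.171) and Id4 (-0.17, adjusted p = 0.198) were not called, and Id4 passed without WTR- replicate 3 (-0.27, adjusted p = 0.0267).

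The opposing side of the circuit was lower in part. Of 12 epithelial transcription factors that oppose EMT factors, 6 fell, 2 rose and 4 were not called (median -0.15). Thus 50% fell and 16.7% rose, beside 20.6% and 17.0% of all genes. Grhl2, a grainyhead factor that restrains Zeb1, lay at 8.83, 8.73 and 8.83 in WTR- and at 7.39, 7.53 and 7.54 in MR13. The lines were more than 1 log2 unit apart, and Grhl2 fell by 1.31 (SE 0.06, adjusted p = 5.62e-07). The zinc-finger repressor Ovol1 fell from 6.75, 6.68 and 6.72 to 5.62, 5.85 and 5.77 (-0.97, SE 0.07, adjusted p = 6.60e-06). Ovol2, a related repressor of Zeb genes, fell by 0.51 (SE 0.10, adjusted p = 0.00240). Grhl1 (-0.02) and Grhl3 (0.14) were not called. Klf4 (0.42) and Gata3 (0.19) were the 2 that rose, where Klf4 did not pass the plain test without a shared variance (adjusted p = 0.0745) and Gata3 did not pass when WTR- replicate 2 or 3, or MR13 replicate 2 or 3, was left out (adjusted p = 0.0571 to 0.0813).

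**Figure D3:**
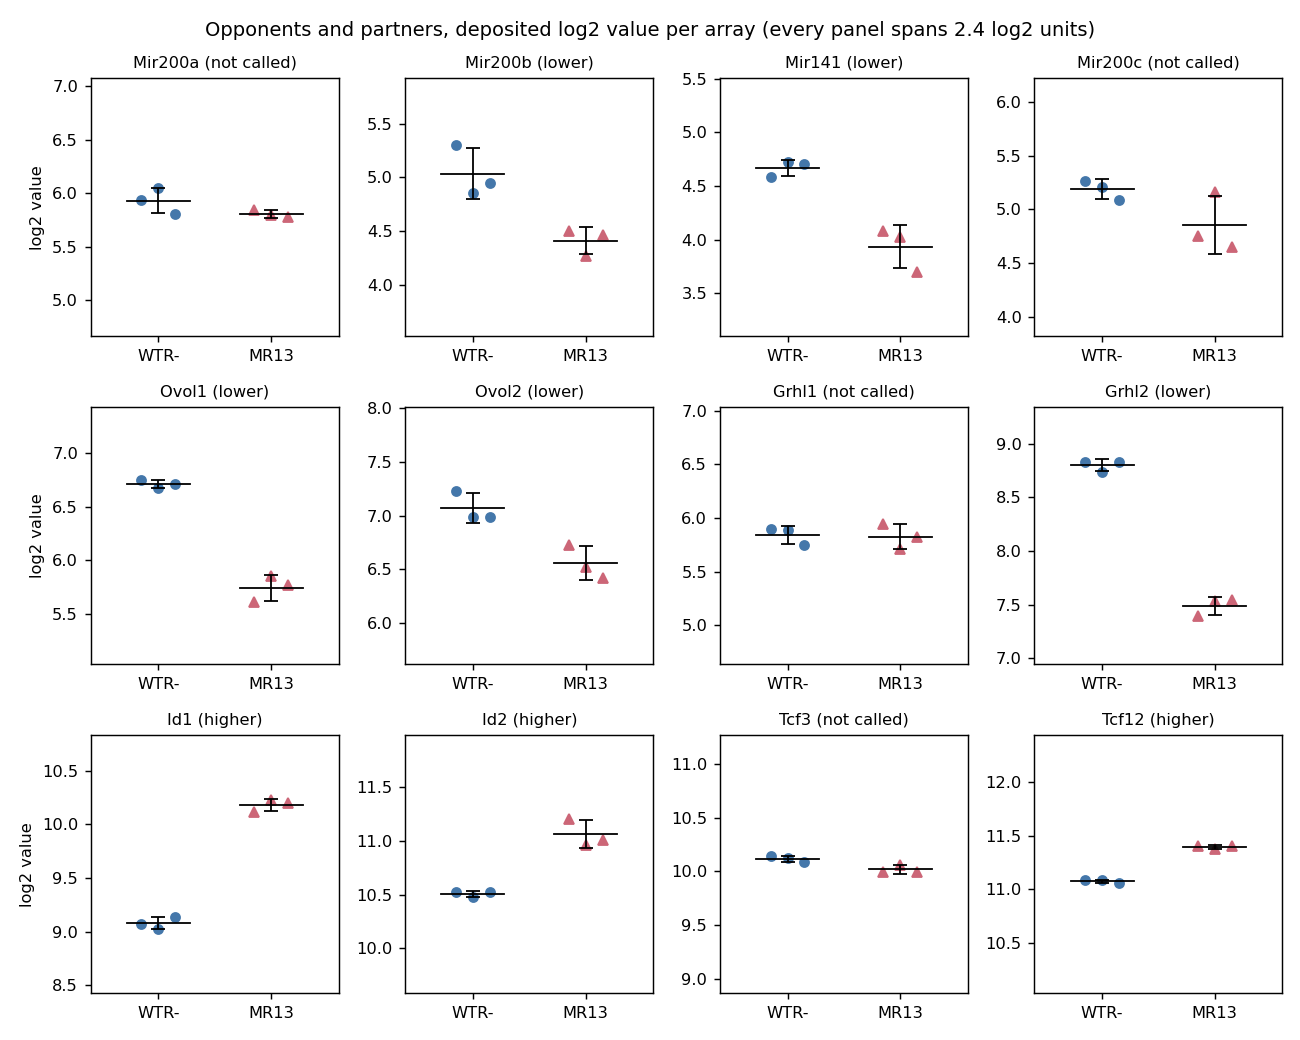
Deposited log2 value (y axis) on the 3 WTR- arrays (circles) and 3 MR13 arrays (triangles) of miR-200 family genes, Ovol and Grhl genes, ID genes and E protein genes, with mean (line), SD (bar) and call. Grhl2 and Ovol1 differ by -1.31 and -0.97 and Id1 by 1.10, while Grhl1 overlaps between the lines.

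The miR-200 family recognises Zeb1 and Zeb2 transcripts through its seed, bases 2 to 8 of the mature microRNA. The mature sequences (RefSeq, GRCm38.p6) are shown with the seed in capitals because they divide the family into 2 seed groups that differ at 1 base of the seed.
miR-200b-3p (chr4:156055685-156055706, minus strand): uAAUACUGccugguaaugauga
miR-200c-3p (chr6:124718324-124718346, minus strand): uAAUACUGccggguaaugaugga
miR-429-3p (chr4:156053916-156053937, minus strand): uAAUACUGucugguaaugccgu
miR-200a-3p (chr4:156054911-156054932, minus strand): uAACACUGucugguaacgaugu
miR-141-3p (chr6:124717917-124717938, minus strand): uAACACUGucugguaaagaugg
The arrays carry probe sets for the microRNA genes, not for the mature strands. In each seed group 1 gene fell. Mir200b, of the first group, read 5.30, 4.85 and 4.95 in WTR- and 4.50, 4.27 and 4.47 in MR13, and Mir141, of the second, read 4.58, 4.72 and 4.70 and then 4.08, 4.02 and 3.70. Neither gene overlapped between the lines. Mir141 fell by 0.73 (SE 0.10, adjusted p = 0.000316) and Mir200b by 0.62 (SE 0.12, adjusted p = 0.00234). Mir200c read 5.27, 5.21 and 5.08 in WTR- and 4.75, 5.16 and 4.65 in MR13 and was not called (-0.33, adjusted p = 0.0631). MR13 replicate 2 lay apart from the other MR13 arrays there, and without it the difference was -0.49 (adjusted p = 0.00177). Mir200a was not called (-0.12, adjusted p = 0.203), and the probe set of Mir429 is shared with another gene and was not assigned. In the whole list of microRNA genes, 2 of 9 fell (22.2%, beside 20.6% of all genes) and 7 were not called. The list was called less often than all genes (22.2%, beside 37.6%). Of the 9, 8 were among the dimmest 30% of genes, Mir200a being the exception. The uncalled ones outside the family were Mir205 (-0.01), Mir34a (-0.11), Mir34b (-0.03), Mir34c (-0.05) and Mir203 (-0.06), genes of microRNAs that target Zeb, Snai1 or Snai2 transcripts.

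Epithelial genes that EMT factors are known to repress were lower almost throughout. Of 24 such genes 23 fell (95.8%, beside 20.6% of all genes) and 1 rose, with a median difference of -1.64. The list was chosen with earlier results of these data known, so its share is a description. Cdh1, Epcam, Cldn4 and Krt18 are also among the epithelial markers checked above. The lines did not overlap for any of the 24, while they did not overlap for 47.4% of all genes. The splicing regulator Esrp1 lay at 10.74, 10.72 and 10.67 in WTR- and at 5.11, 5.58 and 4.95 in MR13, and the tight junction gene Cldn4 at 12.41, 12.37 and 12.37 and then 7.01, 7.17 and 7.17. These values differed by more than 5 log2 units, several times the largest difference of any EMT factor. Esrp1 fell by 5.50 (SE 0.14, adjusted p = 1.48e-08) and Cldn4 by 5.27 (SE 0.06, adjusted p = 4.12e-10). The exception was the mucin gene Muc1, which rose from 6.52, 6.39 and 6.64 to 7.79, 7.95 and 8.07 (1.42, SE 0.09, adjusted p = 2.85e-06).

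The 250 bases before the annotated starts of these genes were searched for the same E-box, on both strands and with no other motif. The RefSeq promoter table (GRCm38.p6) held windows for 15 of the 24 genes, and 11 of the 15 (73.3%) had at least 1 match, beside 19.4% of all genes with a window. Cdh1 and Esrp1 were among the genes without a window and could not be searched. At least 2 matches in 1 window were found for 7 of the 15 (46.7%, beside 2.39% of all genes). Of 17 mesenchymal genes with windows, 0 had a match. The list was drawn up from genes known to be repressed by E-box factors, so its share is a description and not independent of that knowledge. The windows with the most matches, those of Ap1m2 and Crb3, are shown with those of Epcam and Rab25, which fell the most among genes with 2 matches, and that of Muc1, the gene that rose. The choice was made with their values known, and capitals mark the matches.
Ap1m2 (chr9:21312334-21312583, minus strand): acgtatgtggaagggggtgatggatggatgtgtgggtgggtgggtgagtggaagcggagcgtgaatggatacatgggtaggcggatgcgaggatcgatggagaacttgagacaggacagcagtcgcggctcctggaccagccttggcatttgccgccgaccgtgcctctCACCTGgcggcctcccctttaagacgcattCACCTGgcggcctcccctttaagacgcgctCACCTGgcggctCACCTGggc
Crb3 (chr17:57061951-57062200, plus strand): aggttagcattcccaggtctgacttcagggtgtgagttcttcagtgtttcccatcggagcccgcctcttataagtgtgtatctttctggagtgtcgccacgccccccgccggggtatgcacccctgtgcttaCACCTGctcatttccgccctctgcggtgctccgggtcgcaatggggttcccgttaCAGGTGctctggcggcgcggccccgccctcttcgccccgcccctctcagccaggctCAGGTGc
Epcam (chr17:87635729-87635978, plus strand): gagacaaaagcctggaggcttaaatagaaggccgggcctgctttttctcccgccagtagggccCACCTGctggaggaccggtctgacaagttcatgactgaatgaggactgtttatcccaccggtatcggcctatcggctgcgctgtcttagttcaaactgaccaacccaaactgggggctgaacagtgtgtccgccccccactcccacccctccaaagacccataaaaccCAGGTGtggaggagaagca
Rab25 (chr3:88548280-88548529, minus strand): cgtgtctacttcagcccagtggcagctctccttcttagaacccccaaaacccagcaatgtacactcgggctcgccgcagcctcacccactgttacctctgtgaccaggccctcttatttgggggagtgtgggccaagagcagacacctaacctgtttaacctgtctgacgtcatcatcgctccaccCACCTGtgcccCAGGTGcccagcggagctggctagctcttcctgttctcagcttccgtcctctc
Muc1 (chr3:89228806-89229055, plus strand): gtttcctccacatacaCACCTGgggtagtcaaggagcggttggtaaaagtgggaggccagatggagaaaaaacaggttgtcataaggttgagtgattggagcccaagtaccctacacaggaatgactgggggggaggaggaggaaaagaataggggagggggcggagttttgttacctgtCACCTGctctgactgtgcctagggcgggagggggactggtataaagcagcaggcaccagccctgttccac
Ap1m2, an adaptor subunit for sorting to the basolateral membrane, had 4 matches, which begin 81, 51, 21 and 9 bases before the start, and fell by 2.93. The polarity gene Crb3 had 3 and fell by 1.08. Epcam, an epithelial adhesion molecule, and Rab25, a GTPase of apical recycling, had 2 each and fell by 4.30 and 5.26. Muc1 also had 2 and was higher, and Cldn3 had no match in its window and fell by 4.38, so the number of matches did not order the differences.

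**Figure D4:**
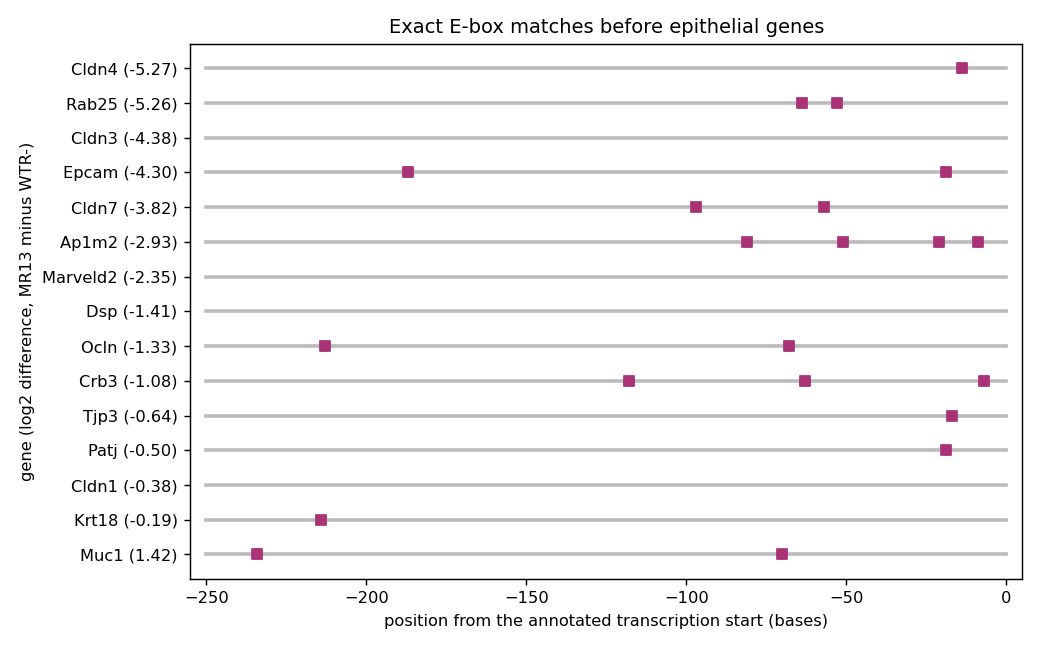
Matches to the E-box (squares) in the 250 bases before the annotated start (x axis, 0 is the start) of the 15 epithelial genes with a window, ordered by log2 difference in parentheses (y axis), using the window with the most matches per gene. Ap1m2 holds 4 matches and Crb3 3, and genes without a match, such as Cldn3 (-4.38), stand between genes with 1 or more.

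Mesenchymal genes were raised in part. Of 26 listed, 13 rose, 1 fell and 12 were not called (median 0.20). Here 50% rose and 3.8% fell, beside 17.0% and 20.6% of all genes. The receptor gene Pdgfra lay at 8.43, 8.34 and 8.36 in WTR- and at 10.11, 10.30 and 10.17 in MR13. It rose by 1.82 (SE 0.06, adjusted p = 9.33e-08), and the protease gene Mmp9 by 1.37 (SE 0.06, adjusted p = 2.55e-07). Postn, encoding the matrix protein periostin, was the one that fell (-1.16, SE 0.05, adjusted p = 4.86e-07). Pdgfra and Postn are also among the 3 called fibroblast markers. The classical markers vimentin (Vim, 0.24, adjusted p = 0.00426) and N-cadherin (Cdh2, 0.13, adjusted p = 0.0958), named after their values were seen, had small differences in signal, and Cdh2 was not called. Cdh2 was among the dimmest 30% of genes and Vim among the brightest on the arrays, and a difference can be understated at either end. Beside the median of -1.64 for the epithelial list, the median of 0.20 for the mesenchymal list was small, and this difference between lists was not tested.

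**Figure D5:**
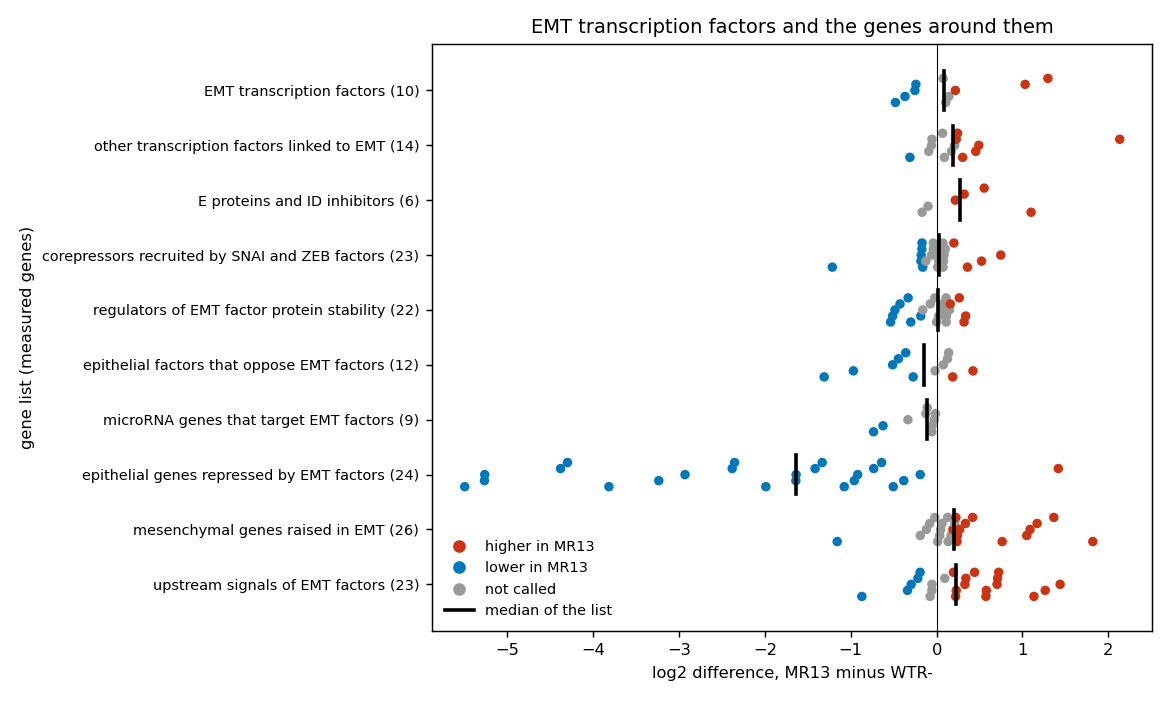
Difference between the lines in log2 units, MR13 minus WTR- (x axis), for every measured gene of the EMT factors and of the 9 lists around them (y axis), with 1 point per gene, coloured by call, and the median as a black bar. Epithelial genes reach -5.50 with a median of -1.64, whereas the EMT factors span -0.48 to 1.30 with a median of 0.09.

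Upstream signals of EMT factors, a list that holds inducers and inhibitors, rose more often than they fell. Of 23 genes, 14 rose, 5 fell and 4 were not called (median 0.23). That is 60.9% higher, beside 17.0% of all genes, and 21.7% lower, beside 20.6%. Stat3, the transcription factor of IL-6 family cytokines, lay at 9.75, 9.66 and 9.56 in WTR- and at 11.06, 11.15 and 11.08 in MR13, a rise of 1.44 (SE 0.06, adjusted p = 3.61e-07). The immediate early factor Egr1 rose by 1.26 (SE 0.08, adjusted p = 4.07e-06). Jag1, a Notch ligand, fell by 0.87 and Skil, a brake on SMAD signalling, by 0.34. In the TGF-β branch, named after the values were seen, the ligands Tgfb1 (0.72), Tgfb2 (0.44) and Tgfb3 (0.71), the receptor Tgfbr1 (0.58) and Smad3 (0.70) rose, Smad2 (-0.22) fell, and Tgfbr2 (-0.05) and Smad4 (-0.08) were not called. Of the inhibitors of that branch, Smad7 (-0.30) fell like Skil, and Ski (0.22, adjusted p = 0.00639) rose.

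Genes of the machinery through which SNAI and ZEB proteins act or are destroyed were called in both directions, with higher calls near the share of all genes. Of 23 corepressor and cofactor genes, 4 rose, 6 fell and 13 were not called (median 0.02). These are 17.4% higher and 26.1% lower, beside 17.0% and 20.6% of all genes. The acetyltransferase Ep300 rose by 0.75 and the scaffold Sin3a by 0.52. Ajuba, a LIM protein that bridges SNAI factors to corepressors, fell from 9.69, 9.69 and 9.74 to 8.37, 8.53 and 8.59 (-1.21, SE 0.07, adjusted p = 1.32e-06), and Hdac3 by 0.18. The other falls were small, and the count of 6 was 1 without WTR- replicate 1, WTR- replicate 2 or MR13 replicate 3. Of 22 genes that set the stability of EMT factor proteins, 4 rose, 7 fell and 11 were not called (median 0.01). Here 18.2% were higher and 31.8% lower, beside the same 17.0% and 20.6%. The COP9 signalosome subunit Cops2 (0.34) and the kinase Atm (0.32) rose, and the deubiquitinase Usp27x (-0.54), which stabilises SNAI1, and the kinase Lats2 (-0.51) fell. The arrays measure transcripts, and the amounts of SNAI and ZEB proteins were not measured here.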

How the data were processed

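Total RNA was hybridised as biotin-labelled target to Affymetrix Mouse Gene 1.0 ST arrays, 3 of WTR- and 3 of MR13 cells, grouped by sample title. The deposited values were log2 signals per probe set that the authors had normalized between arrays, and the submitters' processing notes name affy and limma. Background correction, summarization and versions are not given in the sources used here. No detection calls were used. Of 28350 probe sets, 21780 had 1 symbol in the probe annotation, and the brightest per gene gave 19933 genes. Lines were compared with limma 3.58.1 (R 4.3.3, lmFit and eBayes, two-sided, Benjamini-Hochberg over all genes). Arrays of a line correlated across probe sets at r = 0.998 to 0.999, and of different lines at 0.984 to 0.987. The number of arrays limits the precision. The members and lists were chosen with earlier results of these data known. Named from each list were up to 2 called genes per direction with the largest differences and groups apart, and all E protein, ID, Ovol, Grhl and microRNA genes. The alternatives were another normalization, centring, filter, probe set rule, variance prior or test, a replicate block, fold minimums and leaving out each array, and for genes and lists other than the members they were added after the data were seen. On simulated data with 200 changed genes among 19933, the fit recovered 46.0% of 1.25-fold and 82.0% of 1.5-fold changes, and 3.53% of its calls were false. Between the lines 37.6% of genes were called, a far larger share than was changed there, so these rates may not carry over.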

Additional observations from a re-analysis of the deposited data

How the results depend on the processing

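Without a fold minimum, the count of called EMT factors lay between 5 and 8 of 10 and that of all genes between 6524 and 7946, while a test of all probe sets called 9172 probe sets. With a minimum of 1.5-fold the counts were 2 EMT factors (Zeb2 and Snai1) and 2193 genes, and with 2-fold 2 and 810. After repeated quantile normalization more genes were called higher (3940) than lower (3836). Leaving out 1 array in turn gave 5 to 6 EMT factors and 6716 to 6971 genes. Zeb1, Zeb2, Snai1, Snai2 and Foxc2 kept their direction and call under each alternative without a fold minimum in which they were tested (Zeb2 1.26 to 1.36, Snai1 0.99 to 1.08), except that Snai2 and Prrx1 are not tested where the dimmest 30% of genes are left out. Among the alternatives without a fold minimum, Snai3 lost its call in 6 and Twist1 in 5, among them the plain test without a shared variance, and Tcf4 passed in 5, and the cause was not tested. The replicate numbers gave no clear pairing of the arrays. Correlations of same-numbered deviations were 0.13, -0.0012 and 0.18. WTR- replicates 1 and 3 correlated best with their own number, and WTR- replicate 2 did not. With the replicate block 7 EMT factors and 7442 genes were called. Of the 43 other named genes, those that changed sign when 1 array was left out were uncalled ones near 0, Grhl1 (-0.077 to 0.038), Mir205 (-0.073 to 0.043), Mir34b (-0.097 to 0.0083) and Mir34c (-0.13 to 0.0033). In the lists, leaving out MR13 replicate 3 gave 2 mesenchymal genes that fell in place of 1, and a trended and robust prior gave 7 stability genes that rose in place of 4. Background is part of each value, so dim genes such as Snai2, Prrx1 and the microRNA genes are measured least well.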
